A study of Rattus rattus with 10 samples.

Results

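Sertoli cells are the nurse cells of the seminiferous tubule, and 10 genes known for their identity or their secretions were followed here in rat testis after 2 antispermatogenic drugs. The genes were Wt1, Gata4, Gata1, Clu, Shbg, Dhh, Amh, Rhox5, Aard and Vnn1. Every probe set whose platform annotation gives one of these symbols was taken, which gave 13 of 31042 probe sets for 10 of 14217 named genes. The question was whether transcripts of Sertoli cell identity were held while stress genes rose. All 10 arrays held RNA of whole testis from male Long-Evans rats 60 days of age, each given 1 intraperitoneal dose: gamendazole at 6 mg/kg, lonidamine at 25 mg/kg, or the buffered DMSO in which the controls were dosed. There was 1 array for each drug and for the vehicle at 4, 12 and 24 h, and 1 further vehicle array at 0 h. The labels do not say how many animals stood behind an array, or whether RNA was pooled, and no treatment was repeated at an hour. In whole testis a lower signal can come from fewer Sertoli cells or from less RNA per cell. Each array is scaled to the same mean, so a larger share of RNA from other cells can lower it too. These cannot be told apart here.

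Sertoli cells hold developing germ cells in place, seal the blood-testis barrier and secrete carrier proteins and hormones into the tubule. The zinc-finger factor WT1 and the zinc-finger factor GATA4 set up and maintain Sertoli cell fate, and GATA1 is a related factor that mouse Sertoli cells make at particular stages of the spermatogenic cycle as well as the master factor of red cell precursors. Clusterin (Clu) is a secreted chaperone and a major product of Sertoli cells, also made by epididymal epithelium, and Shbg encodes androgen-binding protein in the testis. Desert hedgehog (Dhh) is the signal that Sertoli cells send to Leydig and peritubular cells, and anti-Müllerian hormone (Amh) is made mainly by immature Sertoli cells. Rhox5 encodes a homeobox factor that androgen induces in mouse Sertoli cells, Vnn1 encodes the pantetheinase vanin-1, and Aard is named for an alanine- and arginine-rich domain.

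Signals are linear intensities scaled by the authors' software to a trimmed mean of 500.2 on every array, and array medians lay between 110.2 and 124.5. Probe sets differ in how well they hybridise, so a signal is compared here only with the same probe set on other arrays. Signals under 37.1 were raised to that floor before log2 was taken, and the 17549 probe sets at or above 116.2, the median of all signals, on 2 or more arrays were tested. Of the 13 probe sets 11 were tested, for 8 of the 10 genes. The averaged comparison set 3 arrays of a drug against 3 vehicle arrays, with treatment and hour as factors. A second fit set each treated array against the 4 vehicle arrays together. The hours, or the vehicle arrays, thus stand in for replicates, and part of the spread behind the p-values may be technical. By the instrument records the arrays fell into 3 hybridisation runs, and gamendazole 4 h lay in another run than vehicle 4 h, while the 12 h arrays shared a run and so did the 24 h arrays.

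None of the tested probe sets of the Sertoli cell genes passed the averaged test for either drug. With gamendazole 0 of 11 passed limma's test at an adjusted p of 0.05, where 3.95% of all tested probe sets passed, and 1 of 11 had an unadjusted p under 0.05. With lonidamine 0 of 11 passed, against 0.781% of all tested, and 2 of 11 had an unadjusted p under 0.05. Of these 2, Clu 1388246_at reached the signal filter on the lonidamine arrays alone. The median size of their log2 difference was 0.14 with gamendazole and 0.09 with lonidamine, beside 0.18 and 0.14 over all tested probe sets. The 95% interval lay within 2-fold of vehicle for 11 of 11 probe sets with gamendazole and for 10 of 11 with lonidamine. On single arrays the one gene that passed was Aard, which was lower at 24 h after each drug.

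**Figure D1:**
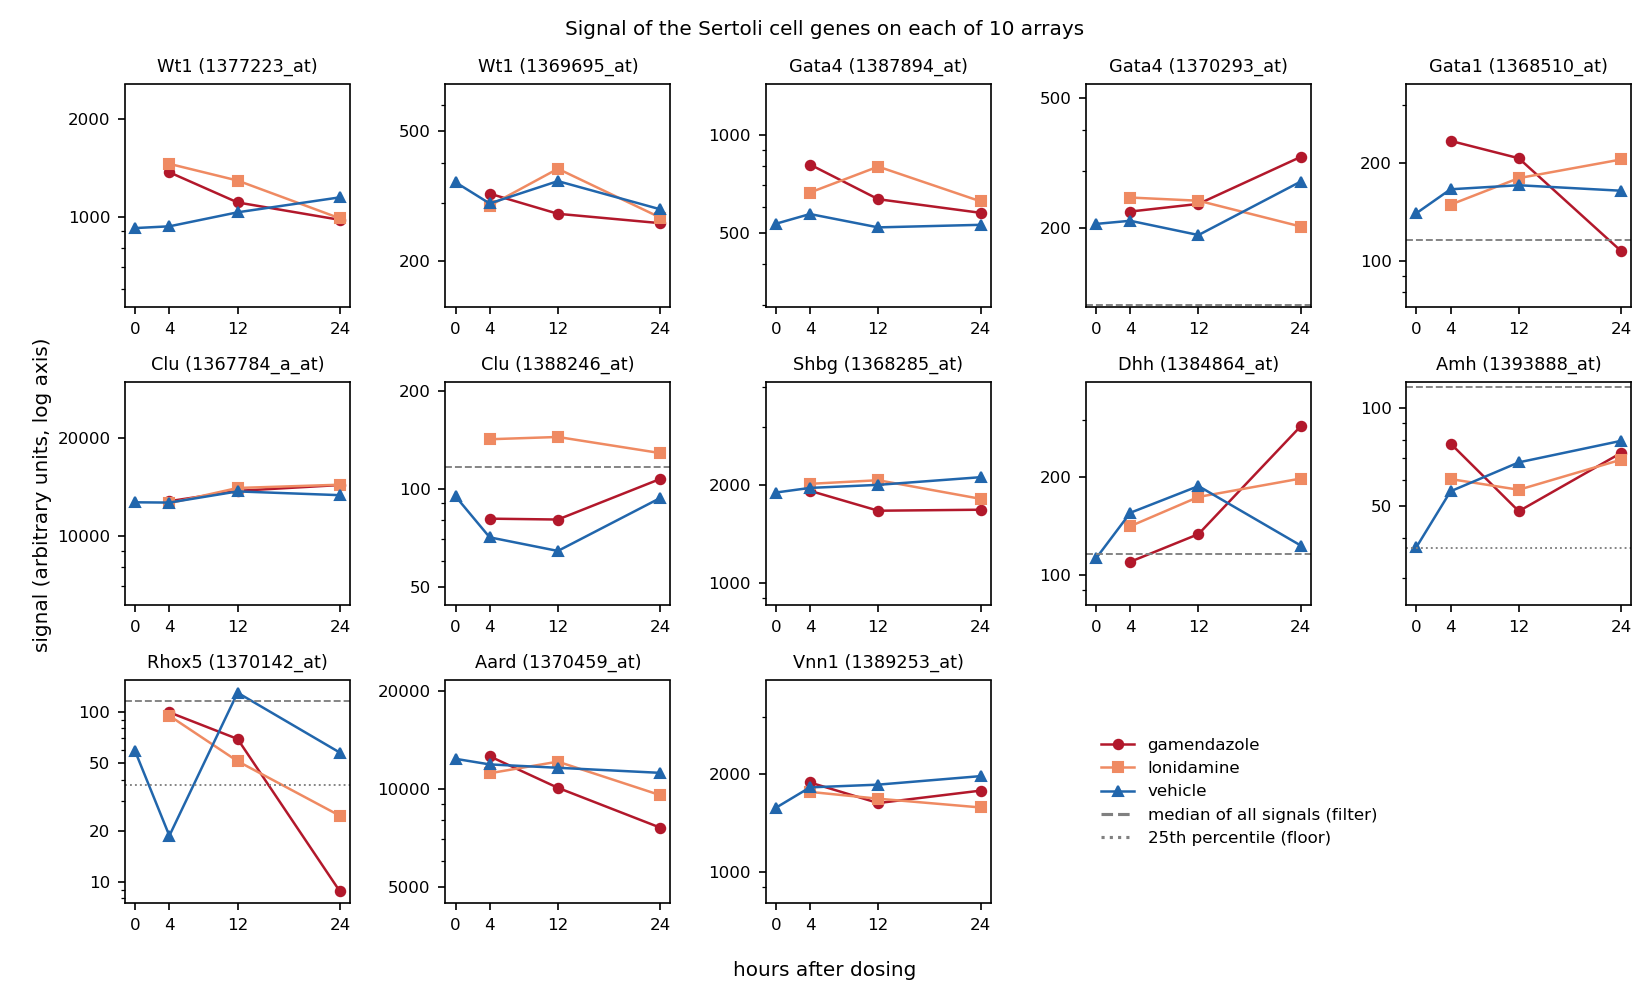
Signal (log axis, arbitrary units) of each of the 13 probe sets against hours after dosing, with 1 array per point, for gamendazole, lonidamine and vehicle. Each panel has its own range; the dashed line marks the median of all signals (116.2) and the dotted line the floor (37.1). The bright Clu probe set is flat across all arrays, Aard is lowest on gamendazole 24 h (7600.1), and Amh and Rhox5 lie near or under the median of all signals.

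Wt1 is represented by a pair of probe sets. The brighter, 1377223_at, read 1367.7, 1105.1 and 977.0 at 4, 12 and 24 h after gamendazole and 1451.9, 1290.2 and 987.4 after lonidamine, against 921.9, 933.3, 1030.6 and 1145.7 on the vehicle arrays of 0, 4, 12 and 24 h. Both drugs thus gave signals above all vehicle arrays at 4 h, lonidamine also at 12 h, and at 24 h both drugs lay inside the vehicle range. Set against vehicle of the same hour the ratio was 1.47 with gamendazole and 1.56 with lonidamine at 4 h, and 0.853 and 0.862 at 24 h. The averaged log2 difference was 0.14 ± 0.15 with gamendazole (SE, n = 3 arrays per treatment, limma adjusted p = 0.656) and 0.25 ± 0.15 with lonidamine (limma adjusted p = 0.554). None of the single-array differences passed either; that of lonidamine 4 h was 0.53 ± 0.14 on the log2 scale (limma adjusted p = 0.382). The dimmer probe set, 1369695_at, ranged from 260.9 to 383.4 on treated arrays and from 287.8 to 351.3 on vehicle arrays, and its ratio at 4 h was 1.07 with gamendazole and 0.985 with lonidamine, so the high 4 h readings of the brighter probe set had no counterpart there.

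Gata4 was the one tested member whose main probe set lay above every vehicle array on all treated arrays. Probe set 1387894_at read 809.3, 633.3 and 575.1 at 4, 12 and 24 h after gamendazole and 663.9, 797.6 and 623.9 after lonidamine, against 532.3, 570.2, 518.8 and 528.3 on the vehicle arrays of 0, 4, 12 and 24 h. The vehicle arrays differed from each other by at most 1.1-fold, while the treated arrays lay 1.09-fold to 1.54-fold above vehicle of the same hour. The averaged log2 difference was 0.31 ± 0.14 with gamendazole (limma adjusted p = 0.259) and 0.36 ± 0.14 with lonidamine (unadjusted p = 0.0279, limma adjusted p = 0.32), so neither passed. The nearest single arrays to the threshold were gamendazole 4 h, with a log2 difference of 0.59 ± 0.13 (limma adjusted p = 0.0998), and lonidamine 12 h, with 0.57 ± 0.13 (limma adjusted p = 0.1). A second probe set, 1370293_at, had 224.7, 237.2 and 330.8 after gamendazole and 248.1, 242.6 and 202.1 after lonidamine, against 205.9, 210.5, 190.3 and 277.9 on vehicle arrays, and there the groups overlapped.

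Lying outside the vehicle range on all arrays of a drug was common in these data. All 3 gamendazole arrays lay above or below the 4 vehicle arrays for 1 of 11 tested probe sets of the Sertoli cell genes, against 19.1% of all tested. With lonidamine this held for 2 of 11, Gata4 1387894_at and Clu 1388246_at, against 14.3%. The Clu probe set reached the signal filter on the lonidamine arrays alone, so its place in this count is not independent of the filter. For both drugs at once it held for Gata4 alone, 1 of 11, against 7.28%. The gamendazole share lies under its background, and the other 2 shares lie above theirs by less than 1 probe set of 11.

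Gata1 (1368510_at) had 233.5, 206.5 and 107.1 after gamendazole and 148.7, 179.4 and 204.7 after lonidamine, against 140.0, 165.8, 170.6 and 164.1 on vehicle arrays. Gamendazole gave both the highest reading, at 4 h, and the lowest, at 24 h, where the signal was under the median of all signals. The ratio to vehicle of the same hour was 1.41, 1.21 and 0.653 with gamendazole and 0.897, 1.05 and 1.25 with lonidamine. Averaged over the hours the log2 difference was 0.05 ± 0.30 with gamendazole and 0.08 ± 0.30 with lonidamine (limma adjusted p = 0.946 and 0.951), and no single array passed. Marks of red cells in the tissue went both ways on gamendazole 24 h. The beta-globin gene Hbb was 2.66-fold over vehicle of the same hour, while the lowest of the 3 tested red cell markers was at 0.578. The median log2 difference of these markers from the 4 vehicle arrays was -0.40. Their part in the Gata1 reading was not tested.

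Clu was the steadiest of the genes. Its bright probe set, 1367784_a_at, read 12785.5, 13751.5 and 14332.4 after gamendazole and 12602.5, 14035.8 and 14363.0 after lonidamine, against 12682.1, 12658.5, 13698.8 and 13339.0 on vehicle arrays. The coefficient of variation over the 10 arrays was 5.26%, where the median tested probe set had 16.1%. The averaged difference was 1.03-fold with each drug, with a 95% interval of 0.963 to 1.1 for gamendazole and 0.965 to 1.1 for lonidamine (limma adjusted p = 0.644 and 0.732). At 24 h the log2 difference from the 4 vehicle arrays was 0.13 ± 0.06 with either drug and did not pass (limma adjusted p = 0.226 for gamendazole, 0.253 for lonidamine). After quantile or cyclic loess normalization of all arrays the gamendazole 24 h value was 0.27 or 0.32 and passed (limma adjusted p = 0.0385 and 0.0391).

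A second Clu probe set, 1388246_at, read another way. It had 80.8, 80.3 and 107.0 after gamendazole and 141.7, 144.0 and 128.5 after lonidamine, against 94.6, 70.8, 64.3 and 93.5 on vehicle arrays. All lonidamine arrays lay above all vehicle arrays and above the gamendazole arrays, at signals around the median of all probe sets. Only the 3 lonidamine arrays reached the signal filter of 116.2, so the probe set was tested because it was high there. Its lonidamine values are therefore not independent of the filter, and no conclusion is drawn from its p-values. The averaged log2 difference was 0.87 ± 0.30 with lonidamine (unadjusted p = 0.0169, limma adjusted p = 0.265) and 0.24 ± 0.30 with gamendazole (limma adjusted p = 0.717). The single lonidamine arrays passed when the floor was raised to the pooled median of 116.2, and at no other setting. All vehicle readings of this probe set, at most 94.6, lie under that floor and take its value. The vehicle spread at that setting is therefore made by the floor, and no conclusion is drawn from it. The pair of Clu probe sets thus disagree about lonidamine, and the files do not say which part of the transcript each one reads.

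Shbg (1368285_at) had 1916.9, 1665.1 and 1676.9 after gamendazole and 2013.9, 2066.0 and 1811.3 after lonidamine, against 1893.7, 1956.6, 1999.6 and 2110.7 on vehicle arrays. The gamendazole arrays of 12 and 24 h and the lonidamine array of 24 h lay under every vehicle array, at 0.833, 0.794 and 0.858 of vehicle at the same hour. The averaged log2 difference was -0.21 ± 0.09 with gamendazole (unadjusted p = 0.0414, limma adjusted p = 0.226) and -0.04 ± 0.09 with lonidamine (limma adjusted p = 0.892). Neither gamendazole array passed singly, with log2 differences of -0.26 ± 0.09 at 12 h and -0.25 ± 0.09 at 24 h (limma adjusted p = 0.146 and 0.144).

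Vnn1 (1389253_at) stayed between 1578.3 and 1883.3 on treated arrays and between 1574.6 and 1969.8 on vehicle arrays. The treated arrays lay inside the vehicle range throughout. Its averaged log2 difference was -0.10 ± 0.09 with gamendazole and -0.17 ± 0.09 with lonidamine (limma adjusted p = 0.583 and 0.457), with 95% intervals of 0.82 to 1.07 and 0.779 to 1.02 of the vehicle level. Shbg had intervals of 0.754 to 0.993 with gamendazole and 0.845 to 1.11 with lonidamine. The dim Clu probe set was far less precise, with intervals of 0.735 to 1.88 and 1.14 to 2.94.

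Dhh (1384864_at) was measured with less precision. It had 110.1, 133.9 and 287.4 after gamendazole and 141.6, 174.2 and 198.4 after lonidamine, against 112.9, 155.7, 188.1 and 123.5 on vehicle arrays. Gamendazole 24 h gave the highest signal of the 10 arrays, 2.33-fold over vehicle 24 h, while gamendazole 4 h and 12 h lay under vehicle of the same hour at 0.707 and 0.712. The vehicle arrays alone differed by up to 1.67-fold. Against the 4 vehicle arrays the gamendazole 24 h difference was 1.02 ± 0.34 on the log2 scale and did not pass (limma adjusted p = 0.113). The averaged log2 difference was 0.08 ± 0.33 with gamendazole and 0.15 ± 0.33 with lonidamine (limma adjusted p = 0.924 and 0.907).

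Aard (1370459_at) moved furthest from its own vehicle spread. It read 12591.3, 10073.7 and 7600.1 at 4, 12 and 24 h after gamendazole and 11166.5, 12122.0 and 9564.9 after lonidamine, against 12365.5, 11887.1, 11607.5 and 11198.1 on the vehicle arrays of 0, 4, 12 and 24 h. The vehicle arrays lay within 1.1-fold of each other; gamendazole 24 h was at 0.679 of vehicle 24 h and lonidamine 24 h at 0.854. Against the 4 vehicle arrays Aard fell by 0.63 ± 0.06 on the log2 scale on gamendazole 24 h (limma adjusted p = 0.00189) and by 0.30 ± 0.06 on lonidamine 24 h (limma adjusted p = 0.0356). At 12 h after gamendazole the difference was -0.22 ± 0.06 and did not pass (limma adjusted p = 0.083). Averaged over the hours it was -0.23 ± 0.10 with gamendazole (limma adjusted p = 0.261) and -0.09 ± 0.10 with lonidamine (limma adjusted p = 0.8). Leaving out the gamendazole 4 h array, which was hybridised in another run than its vehicle, gave an averaged gamendazole difference of -0.38, which passed (limma adjusted p = 0.0231). That array had the highest Aard signal of all, and without it the count over all tested probe sets rose from 693 to 1162. With the hybridisation run in place of the hour no member passed.

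The gamendazole call on Aard held in 10 of 11 alternative settings, with log2 differences between -0.65 and -0.46, and missed the threshold without the variance trend (limma adjusted p = 0.0552). The lonidamine call was lost in 8 of 11, including quantile normalization, where the log2 difference was -0.18 (limma adjusted p = 0.152), and when the vehicle 0 h, 4 h or 12 h array was left out (limma adjusted p = 0.0514, 0.0944 and 0.1). Other transcripts moved on the same arrays. The summed signal of 10 spermatid markers, genes of the late germ cells that fill adult tubules, was 252188 on gamendazole 24 h and 257645 on lonidamine 24 h, against 287808 to 300709 on vehicle arrays. The summed signal of 9 macrophage and leukocyte markers was 6480.4 and 5917.2 on these arrays, against 2693.1 to 2986.3 on vehicle arrays. Their part in the Aard result was not tested.

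On single arrays the count of passing probe sets among the 11 was 0 on lonidamine 4 h, where 0.0684% of all tested passed, and 0 on gamendazole 4 h, where 1.16% passed. It was 0 on lonidamine 12 h and 0 on gamendazole 12 h, with 1.42% and 7.76% passing over all tested. It was 1 on lonidamine 24 h and 1 on gamendazole 24 h, Aard in each case, against 7% and 9.77% of all tested. The members' counts are therefore close to or under the background at every hour.

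**Figure D2:**
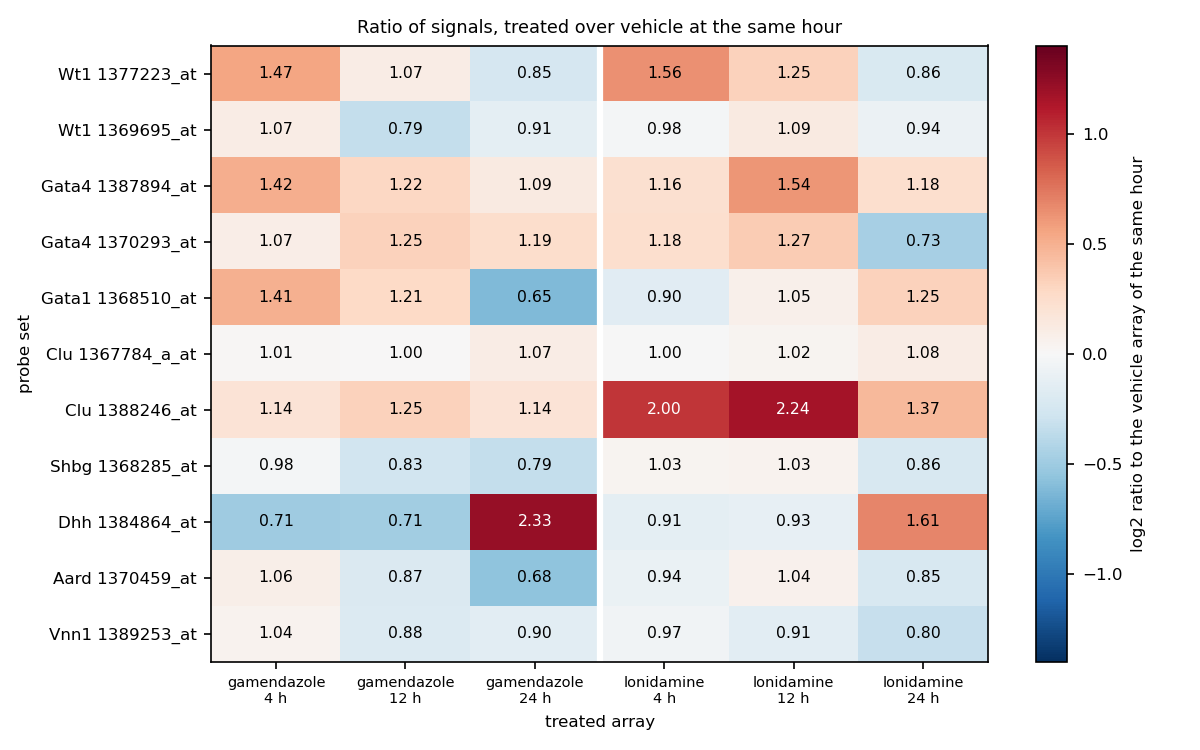
Ratio of the treated signal to the vehicle signal of the same hour for the 11 tested probe sets (rows) on the 6 treated arrays (columns); colour gives the log2 ratio and the number printed in each cell the ratio. The bright Clu probe set stays between 1.0 and 1.08, Aard is at 0.68 on gamendazole 24 h, and the cells at 2.0 or above are the dim Clu probe set on lonidamine 4 h and 12 h and Dhh on gamendazole 24 h.

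Ratios of 2-fold or more to vehicle at the same hour were also counted, with no test, where the brighter array reached the median of all signals. On lonidamine 4 h this held for 1 of 11 eligible member probe sets, Clu 1388246_at at 2.0-fold, against 3.95% of all eligible probe sets. No member passed on gamendazole 4 h (0 of 10, against 5.54%), gamendazole 12 h (0 of 11, against 9.67%) or lonidamine 24 h (0 of 11, against 8.76%). On lonidamine 12 h it held for 2 of 12 (against 6.03%), Clu 1388246_at at 2.24-fold and Rhox5 at 0.396 of vehicle. The Clu probe set was eligible through the lonidamine array alone, at 4 h as at 12 h, and Rhox5 through vehicle 12 h alone. For Rhox5 the vehicle arrays of 4 h and 12 h themselves differed 3.49-fold after flooring. On gamendazole 24 h Dhh alone passed, 1 of 10, against 10.2% of all eligible. Between pairs of vehicle arrays 3.10% to 3.98% of probe sets differed that much.

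Amh and Rhox5 were not tested. Amh (1393888_at) had 77.8, 48.2 and 72.8 after gamendazole and 60.5, 56.1 and 69.4 after lonidamine, against 37.4, 55.5, 68.1 and 79.3 on vehicle arrays. No array reached the median of all signals, and the treated readings lay within the vehicle range. Rhox5 (1370142_at) had 99.4, 69.3 and 8.8 after gamendazole and 94.9, 51.3 and 24.5 after lonidamine, against 58.5, 18.7, 129.6 and 57.6 on vehicle arrays. The vehicle 12 h array alone was above the median of all signals, and the readings of both drugs at 24 h and of vehicle at 4 h lay under the floor, where values have no order. With no filter none of the 31042 probe sets passed the averaged comparison of either drug, so that setting cannot tell whether Amh or Rhox5 changed.

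**Figure D3:**
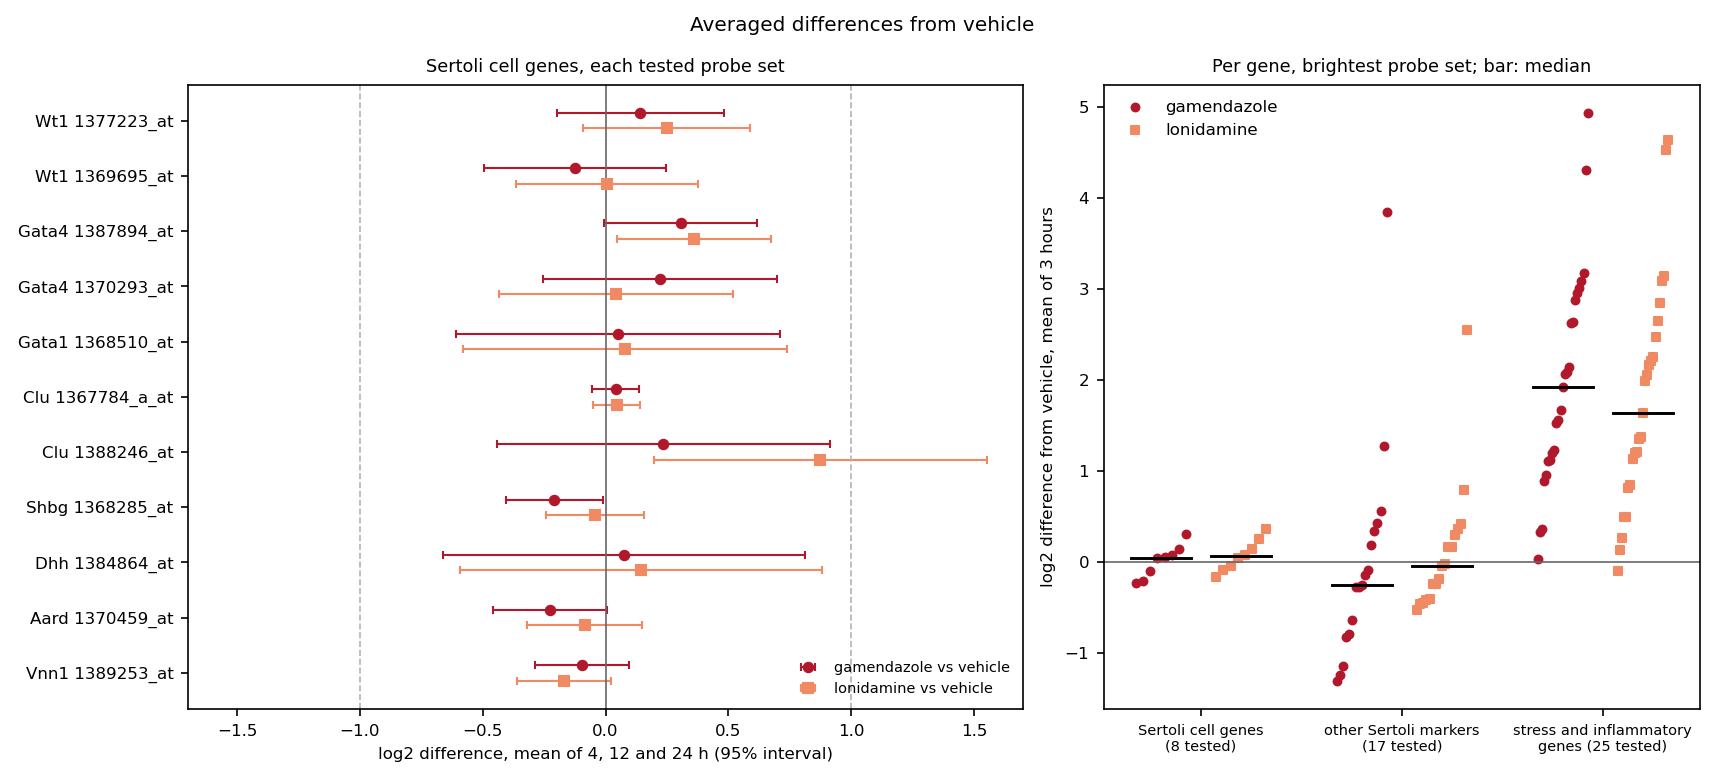
Left: averaged log2 difference from vehicle with its 95% interval for each of the 11 tested probe sets, gamendazole above lonidamine, with dashed lines at 2-fold. Right: the same difference per gene (brightest probe set) for the 8 tested Sertoli cell genes, 17 other Sertoli markers and 25 stress and inflammatory genes, with the median as a bar. The Sertoli cell genes lie between -0.23 and 0.36, and the stress genes have medians of 1.93 with gamendazole and 1.64 with lonidamine.

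Set directly against each other, gamendazole and lonidamine had no difference that passed limma's test among the 11 probe sets (0 called, against 0% of all tested; 776 probe sets had an unadjusted p under 0.05). Both are indazole compounds that carry an acid group, and gamendazole differs from lonidamine by a trifluoromethyl group and by an acrylic acid in place of the carboxylic acid on the ring. The doses differed, so no comparison at a matched dose was possible. For the bright Clu probe set the averaged difference between the drugs was 0.997-fold with a 95% interval of 0.933 to 1.07, for Shbg 0.892-fold (0.777 to 1.02), for Aard 0.906-fold (0.771 to 1.07) and for Gata4 0.963-fold (0.775 to 1.19). For Dhh and Gata1 the intervals ran from 0.572 to 1.59 and from 0.621 to 1.55, so a difference of 1.5-fold either way lay inside the interval.

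Stress and inflammatory genes moved on the same arrays. Of 25 tested, 18 rose and 0 fell with gamendazole (median log2 difference 1.93, against -0.03 over all tested probe sets), and 13 rose and 0 fell with lonidamine (median 1.64, against -0.01). Over all tested probe sets 3.95% passed with gamendazole and 0.781% with lonidamine. This list, too, was chosen with earlier results of these data known. A gene whose vehicle signals lie at or under the floor cannot fall, and it can reach the filter through the drug arrays alone. The absence of lower genes and the medians are to that extent set by floor and filter. How many of the 25 are such genes was not counted. The chemokine genes Ccl2 and Cxcl1, the early response gene Ier3 and the immediate early gene Fos had the largest gamendazole differences in the list. Ier3 rose 9.02-fold with gamendazole and 7.19-fold with lonidamine (limma adjusted p = 0.00182 and 0.00626). The median log2 difference of the 8 tested Sertoli cell genes was 0.05 with gamendazole and 0.06 with lonidamine. On the 24 h arrays 9.77% of all tested probe sets passed with gamendazole and 7% with lonidamine. At 24 h, 18 of 25 stress genes passed on the gamendazole array and 19 of 25 on the lonidamine array, all higher, beside 1 of 8 Sertoli cell genes, lower, on each. The averaged stress counts depend on the settings, from 0 to 19 with gamendazole and from 0 to 18 with lonidamine over 14 alternatives. Both were 0 with no filter and without the 12 h arrays, and the lonidamine count was also 0 with the higher floor and without the variance trend. At 24 h the stress counts ran from 8 to 19 with gamendazole and from 6 to 19 with lonidamine over 11 alternatives.

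Some other known Sertoli cell markers passed in the averaged comparison. Of 17 tested, 3 rose and 2 fell with gamendazole (median log2 difference -0.25), and 1 rose and 0 fell with lonidamine (median -0.04). Over all tested probe sets 3.95% passed with gamendazole (median -0.03) and 0.781% with lonidamine (median -0.01). Testin, which Sertoli cells secrete near their junctions, and Ctsl, a lysosomal protease that Sertoli cells secrete and macrophages also make, rose with gamendazole. Ctsl was also the 1 marker that rose with lonidamine, by 1.73-fold (limma adjusted p = 0.0447). The averaged lonidamine count ran from 0 to 4 over 14 alternative settings. Inhbb, the inhibin and activin beta B subunit, fell by 1.3 ± 0.21 on the log2 scale (limma adjusted p = 0.0119), and Dmrt1, a factor that maintains male fate in mouse Sertoli cells and is also made by spermatogonia, fell by 0.79 ± 0.18 (limma adjusted p = 0.0413). The averaged gamendazole count ran from 0 to 10 over 14 alternative settings: it was 0 with no filter, without the variance trend and when the 12 h arrays were left out, and it reached 10 when those of 4 h were. With the hybridisation run in place of the hour 1 marker was higher and 0 were lower, so the Inhbb and Dmrt1 calls were lost there, and without the gamendazole 4 h array 3 were higher and 6 lower. Dmrt1 also fell on both 24 h arrays, at 0.576 of vehicle 24 h after gamendazole and 0.605 after lonidamine (limma adjusted p = 0.0283 and 0.0441 against the 4 vehicle arrays).

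At 24 h, 13 of these 17 markers passed on the gamendazole array, 5 higher and 8 lower, and 7 of 17 on the lonidamine array, 4 higher and 3 lower, beside 9.77% and 7% of all tested probe sets. The gamendazole count ran from 7, with no filter, to 13 over 11 alternative settings, and the lonidamine count from 4 to 8. Testin read 1908.8 after gamendazole and 1113.1 after lonidamine, against 36.4 on vehicle 24 h, which is under the floor. Genes picked out after their values were seen were Nr0b1, encoding the nuclear receptor DAX1, at 0.246 of vehicle 24 h with gamendazole and 0.33 with lonidamine, and Gja1, encoding the gap junction protein connexin 43, at 0.326 and 0.386; all 4 differences passed (limma adjusted p between 0.000575 and 0.00169). Cldn11, encoding the barrier protein claudin 11 and also picked out afterwards, was 1.22-fold and 1.26-fold over vehicle 24 h and passed (limma adjusted p = 0.0204 and 0.0165). Nr0b1, Gja1 and Nr5a1 are also expressed by Leydig cells, and Vim and Psap by many cell types, so the list does not report on Sertoli cells alone.

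**Figure D4:**
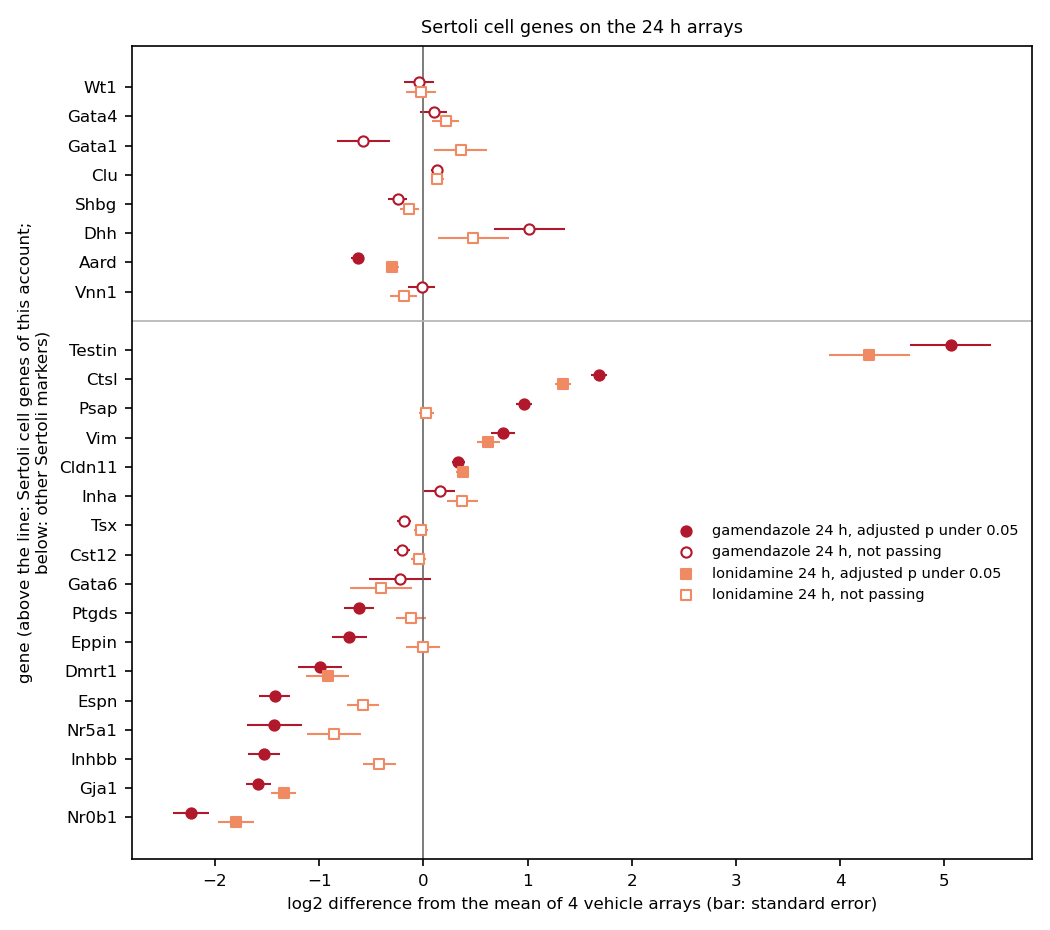
Log2 difference of the 24 h arrays from the mean of the 4 vehicle arrays (points, with the standard error as a bar) for the 8 tested Sertoli cell genes above the line and 17 other Sertoli markers below it, gamendazole above lonidamine. Filled points passed limma's test at an adjusted p of 0.05. Among the upper 8 only Aard is filled, while 13 of the lower 17 are filled for gamendazole and 7 for lonidamine, in both directions.

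Among genes that act with the members, the only averaged calls were in the list of partners and regulators, and more lists had calls on single arrays. Over all tested probe sets 3.95% passed in the averaged comparison with gamendazole and 0.781% with lonidamine. At such shares 0 calls in a list of 4 or 6 genes say little. In the averaged comparisons, of 8 tested partners and upstream regulators of WT1, GATA4 and GATA1, the beta-catenin gene Ctnnb1 rose by 0.39 ± 0.08 (log2) with gamendazole (limma adjusted p = 0.0283), Dmrt1 fell, and 0 passed with lonidamine. None of 4 androgen-responsive Sertoli cell genes passed with either drug; the brightest, Tsx, had log2 differences of -0.14 and -0.04. None of 6 genes of AMH reception passed; Amhr2, the type 2 receptor itself, had -0.30 ± 0.20 with gamendazole and 0.06 ± 0.20 with lonidamine. Of 9 hedgehog receptor and target genes on the array 8 were too dim to be tested, Gli1 among them, so the data say little about a response to Dhh; the inhibitor Sufu had -0.26 ± 0.07 with gamendazole (limma adjusted p = 0.0711). None of 6 clusterin receptors and extracellular chaperones passed, and none of 6 genes of vanins and coenzyme A synthesis.

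On the 24 h arrays, where 9.77% of all tested probe sets passed with gamendazole and 7% with lonidamine, several of these lists had calls; most of the genes named next were picked out after their values were seen. Of the 8 partners and regulators, 1 was higher and 3 lower on gamendazole 24 h (Ctnnb1, and Dmrt1, Nr0b1 and Nr5a1), and 1 higher and 2 lower on lonidamine 24 h; the 3 lower genes are also in the list of other Sertoli markers. On gamendazole 12 h 4 of the 8 had already passed, against 7.76% of all tested. Amhr2 read 555.8 on gamendazole 24 h, against 1141.3 on vehicle 24 h (limma adjusted p = 0.00294), and Smad1, a transducer of that receptor, was 1.69-fold over vehicle with gamendazole and 1.92-fold with lonidamine. Sufu was lower on gamendazole 24 h, at 0.756 of vehicle (limma adjusted p = 0.0232).

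Of the 6 clusterin receptors and chaperones, 2 were higher and 1 lower on each 24 h array. Lrp8, a lipoprotein receptor that binds clusterin, read 103.9 after gamendazole and 192.5 after lonidamine, against 768.0 on vehicle 24 h (limma adjusted p = 0.000815 and 0.00441). The protease inhibitor gene A2m was 2.37-fold and 2.54-fold over vehicle 24 h, and the haptoglobin gene Hp 1.73-fold and 1.83-fold. Of the 6 genes of vanins and coenzyme A synthesis, Pank3 was higher and Pank1 lower on gamendazole 24 h, and Pank3 and Ppcs were higher on lonidamine 24 h. Pank1 and Pank3 encode pantothenate kinases, which start coenzyme A synthesis. Of the 4 androgen-responsive genes, Eppin was lower on gamendazole 24 h and Tubb3 higher on lonidamine 24 h.

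Markers of other cells in whole testis are given beside these results. In the averaged gamendazole comparison Hsd11b1 of 8 Leydig markers, Tagln of 6 peritubular markers, C1qa of 9 macrophage markers and Hbb of 3 red cell markers rose, Krt19 rose and Epcam fell of 2 epididymal epithelium markers, and 0 of 3 endothelial, 3 spermatogonial, 4 meiotic and 10 spermatid markers passed. In the lonidamine comparison 0 genes of these lists passed. Over all tested probe sets 3.95% passed in the averaged gamendazole comparison and 0.781% in that of lonidamine. For the 24 h arrays given next the shares were 9.77% with gamendazole and 7% with lonidamine. On the 24 h arrays Leydig markers stood further out: 1 of 8 was higher and 4 were lower with each drug. Of the spermatid markers 5 of 10 were lower on gamendazole 24 h and 4 of 10 on lonidamine 24 h. For the 9 macrophage and leukocyte markers the median log2 difference from the 4 vehicle arrays was 1.15 on gamendazole 24 h and 1.19 on lonidamine 24 h. It was 0.21 and 0.49 for the 6 peritubular markers, and -1.07 and -0.78 for the 8 Leydig markers. The epididymal genes Adam7 and Defb1 averaged 25.6 and 21.4 over the 10 arrays, under the floor.

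For each tested member the most similar profiles over the 10 arrays were sought among 10509 other genes by Pearson's r of log2 signal, as a description. Aard was most like Mcm10 and Swi5 (r = 0.984 and 0.983), Shbg like Isoc2a and Slc12a2 (0.963 and 0.952), and Gata4 like Myo6 and Kif21a (0.955 and 0.946). Clu was nearest to Hrct1 and Trex1 (0.934 and 0.928), Vnn1 to Galc and Stambp (0.949 and 0.934), and Wt1 to Slc5a3 and Ilkap (0.932 and 0.888). Gata1 was nearest to Lsm3 and Efna5 (0.917 and 0.911) and Dhh to Scamp3 and Fads3 (0.913 and 0.893). No member of the 8 was among the nearest genes of another.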

How the data were processed

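RNA of rat testis was measured on 10 Affymetrix arrays, and the authors deposited 1 linear intensity for each probe set and array. They read the arrays with GCOS 1.1, per the submitters' processing notes. By the values themselves each array was scaled to a trimmed mean of 500.2, leaving out 2% at both ends, so total RNA per array can no longer be compared. Detection calls played no part here. From the deposited intensity, 57 control probe sets were dropped, signals under the pooled 25th percentile (37.1) were raised to it, and log2 was taken. A probe set was tested if it reached the pooled median (116.2) on at least 2 arrays, which held for 17549. Symbols are those of the platform annotation, which gives 1 symbol for 20826 probe sets, several for 436 and none for 9780. The brightest probe set stands for its gene.

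limma 3.58.1 in R 4.3.3 was used with a variance trend in eBayes and Benjamini-Hochberg adjustment over all tested probe sets, at a threshold of 0.05. The averaged fit used 9 arrays (4 residual degrees of freedom). The single-array fit took its 3 residual degrees of freedom from the vehicle arrays, and lends their spread to each treated array. Ratios to vehicle at the same hour have no test. The script was tested on simulated data. Alternatives changed the floor, filter, trend, normalization, hour factor, hybridisation run and arrays; leaving out single vehicle arrays, and list counts under the alternatives, were added after seeing the data. The number of arrays limits the precision. Hybridisation runs were taken from instrument records, and whether they are the laboratory's batches is not known.

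The members, gene lists and tests were chosen with earlier results of these data known. Named were all member probe sets, from other lists up to 4 passing genes of largest averaged difference (otherwise at most 2 of the brightest), and the 2 nearest profiles of each member; genes named outside this rule are marked or given as context. No genome positions or sequences were used here, and the planned promoter search was not run.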

Additional observations from a re-analysis of the deposited data

How the results depend on the processing

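The count of all probe sets that passed the averaged gamendazole comparison was 693. It was 247 with the floor at the pooled median, 0 with no filter, 28 when the variance trend was dropped, 372 when the hour was dropped, 205 with the hybridisation run in place of the hour, 272 when vehicle 0 h joined that fit, and 1162 when gamendazole 4 h was left out. Leaving out an hour gave 0 (without 12 h) to 1646 (without 4 h). For lonidamine the count of 137 was 1, 0, 2 and 50 under the first 4 of these settings, 55 with the stricter filter and 225 when gamendazole 4 h was left out, and leaving out an hour gave 0 to 600. Between the drugs the count of 0 was 8 when gamendazole 4 h was left out, and leaving out an hour gave 0 to 2. Quantile and loess normalization moved the median of all averaged differences by less than 0.1.

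Single-array counts moved as follows. Lonidamine 4 h (12) had 160 with the higher floor, 27 with no floor, 509 with no filter, 20 with the stricter filter, 1 without the trend and 4 after cyclic loess. Gamendazole 4 h (203) had 307, 368 and 569 under the first 3 and 17 without the trend. Lonidamine 12 h (249) had 460, 431, 587 and 96 under the same. Without the trend gamendazole 12 h (1362) had 789, lonidamine 24 h (1229) 696 and gamendazole 24 h (1715) 753.

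Of the 33 averaged member values, Aard with gamendazole was the one that passed under any alternative: -0.38 without the 4 h arrays (limma adjusted p = 0.0266) or without gamendazole 4 h. Member values changed sign 31 times, and none of them was called before or after. For gamendazole, Gata1 read -0.0158 after quantile normalization, -0.0742 with the run, -0.0616 with vehicle 0 h added and -0.229 without gamendazole 4 h; leaving out an hour gave -0.17 to 0.385 for Gata1, -0.0646 to 0.326 for Wt1 1377223_at and -0.495 to 0.364 for Dhh. For lonidamine, Wt1 1369695_at read -0.0673 and -0.0364 after quantile and loess normalization and -0.0396 with vehicle 0 h added, Gata4 1370293_at read -0.0255 after quantile normalization, and Aard read 0.00455 and 0.00842 after quantile and loess normalization. Leaving out an hour gave -0.0532 to 0.0519 for Wt1 1369695_at, -0.111 to 0.294 for Gata4 1370293_at, -0.0422 to 0.196 for Gata1, -0.0895 to 0.0444 for Shbg and -0.124 to 0.287 for Dhh. Between the drugs, Gata1 read 0.0124 with the higher floor, Clu 1367784_a_at 0.0059 after loess, Gata4 0.0618 with its probe sets averaged and Dhh 0.148 without gamendazole 4 h. Leaving out an hour gave -0.366 to 0.427 for Gata1, -0.0163 to 0.00886 for Clu 1367784_a_at, -0.259 to 0.0326 for Wt1 1369695_at, -0.225 to 0.0841 for Gata4 1387894_at, -0.0877 to 0.339 for Gata4 1370293_at and -0.371 to 0.0858 for Dhh. The cause of these shifts was not tested.

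No paired analysis was possible because the labels give no replicate numbers to pair by; the averaged fit itself matches arrays by hour. Readings near the floor, as for Amh and Rhox5, carry no order. With hours as replicates, a difference seen at 24 h alone adds to the spread of the averaged fit.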

Other observations

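At 24 h the steroid-making genes of Leydig cells, which desert hedgehog and other Sertoli cell signals reach, moved in both directions on the drug arrays, and these genes were picked out after their values were seen. Cyp11a1, encoding the enzyme that starts steroid synthesis, read 94.1 after gamendazole and 421.5 after lonidamine, against 1860.7 on vehicle 24 h (limma adjusted p = 0.000107 and 0.00116 against the 4 vehicle arrays). Cyp17a1, encoding the enzyme that leads to androgens, read 5.8, under the floor, and 69.4, against 1269.0 (limma adjusted p = 2.0e-05 and 4.26e-05). Star, encoding the protein that brings cholesterol into mitochondria, was higher, at 2289.4 and 2679.9 against 1124.0 (limma adjusted p = 0.00598 and 0.0031). Shbg, which encodes a carrier of androgen, read 1676.9 and 1811.3 on these arrays, against 2110.7, and did not pass.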
